A study of Homo sapiens with 9 samples.

Results

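The cytosolic ribosomal protein genes were the genes whose symbol is RPL or RPS followed by digits, with an optional final A or X. RPLP0, RPLP1, RPLP2 and RPSA were added. A gene needed at least 1 CPM in at least 3 of the 9 libraries. CPM are reads per gene scaled to library size with a further factor per library. The rule uses names and a low floor, not a difference between groups. It found 77 genes of the 16750 with a row in the deposited tables, 46 of the large and 31 of the small ribosomal subunit, and all 77 symbol matches passed the floor. FAU, which encodes a small subunit protein made as a fusion with a ubiquitin-like protein, does not match the symbol rule and is given beside the members.

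Every cytosolic ribosome carries 1 copy of nearly every one of these proteins, assembled on ribosomal RNA in the nucleolus, and growing cells spend a large part of their transcription on them. Most of their mRNAs begin with a C followed by an unbroken run of pyrimidines, the terminal oligopyrimidine (TOP) motif, through which the kinase complex mTORC1 and the RNA-binding protein LARP1 control their translation and stability. Ribosomal proteins made in excess of ribosomal RNA are usually degraded, so an mRNA level is not a ribosome level.

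RNA was sequenced from PANC-1, a cell line of an epithelioid carcinoma of the pancreatic duct. The SLC22A10_OE cells carried the lentiviral plasmid pLV-SLC22A10, the SLC22A15_OE cells carried pLV-SLC22A15, and the vector cells carried the empty pLV-EV, with 3 libraries per group. All 3 groups were selected and kept in puromycin as stable clones. The labels do not say how many clones stand behind a group, nor that the libraries came from separate cultures. In each group the sample titles end in A1, A2 and B1, and the meaning of these marks is not given. A p-value here is set against the variation among libraries of a group, pooled over the 3 groups and drawn toward that of genes of similar level. That variation may therefore be technical only.

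The bases around the annotated transcription start show members with the motif within 5 bases of it and members without one there. Each line gives 40 bases before and 20 bases after the start in RefSeq (GRCh38.p14), on the gene's own strand, and the capitals mark the C and its pyrimidine run where such a run of a C and at least 4 further C or T begins within 5 bases of the start. The first 5 genes are among the members with the largest increases in SLC22A10_OE cells, and the last 4 are the members that fell there with no overlap between groups. The lines are a selection. RPL13, RPL15 and RPL10 also rose there, had no such run within 5 bases of the start and are not shown. The split over all members with a sequence is given below.
RPL3, chr22:39319604-39319663, minus strand: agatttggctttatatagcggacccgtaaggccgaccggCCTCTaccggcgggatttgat
RPL13A, chr19:49487568-49487627, plus strand: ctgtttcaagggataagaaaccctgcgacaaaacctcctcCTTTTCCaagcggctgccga
RPL22, chr1:6199576-6199635, minus strand: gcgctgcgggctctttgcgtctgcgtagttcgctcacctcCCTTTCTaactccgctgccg
RPL39, chrX:119791611-119791670, minus strand: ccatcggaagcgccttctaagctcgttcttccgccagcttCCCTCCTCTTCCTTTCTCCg
RPS19, chr19:41860215-41860274, plus strand: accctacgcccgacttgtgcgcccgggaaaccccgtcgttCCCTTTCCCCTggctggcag
RPL36A, chrX:101390971-101391030, plus strand: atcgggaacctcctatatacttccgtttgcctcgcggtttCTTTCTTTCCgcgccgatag
RPL9, chr4:39458903-39458962, minus strand: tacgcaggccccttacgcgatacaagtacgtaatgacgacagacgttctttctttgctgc
RPL17, chr18:49492446-49492505, minus strand: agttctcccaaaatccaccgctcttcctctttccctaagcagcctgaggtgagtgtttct
RPS26, chr12:56041878-56041937, plus strand: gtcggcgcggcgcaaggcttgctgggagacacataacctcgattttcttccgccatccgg

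Of the 62 members with a promoter sequence in the RefSeq table, 42 (67.7%) had the motif exactly at the annotated start, 25 of 38 large and 17 of 24 small subunit genes. The same letters stood there in 591 of the 11161 tested genes with a sequence (5.30%) and in 4.04% of all 27305 promoters in the table. Within 5 bases of the start the share was 50 of 62 members (80.6%), against 22.4% of the tested genes and 21.1% of all promoters. The search covered the transcribed strand, and a match is a description of these letters only. RPL9, RPL17 and RPS26 had no such run within 5 bases of the annotated start, while RPL36A, which also fell, had one exactly at it. The lines of RPL9, RPL17 and RPS26 above each hold such a run farther away, so their result rests on where the start is annotated.

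The libraries held 28351741 to 42942234 reads, and the transduced genes matched their labels, with 3115, 3194 and 2347 SLC22A10 reads in SLC22A10_OE libraries, none in SLC22A15_OE libraries and 0, 1 and 0 in vector libraries, and with 78.3, 73.3 and 76.1 CPM of SLC22A15 in SLC22A15_OE libraries, against 3.44 to 4.12 in SLC22A10_OE and 5.46 to 6.52 in vector libraries. Of the 8 ductal epithelial markers 5 had a row, and they summed to 532 to 593 CPM in SLC22A10_OE, 287 to 321 in SLC22A15_OE and 436 to 475 in vector libraries. The sum covers opposite changes, since KRT19 rose by 1.55, KRT18 changed by −0.70 and SOX9 rose by 0.30 on the log2 scale in SLC22A10_OE, and KRT8 (−0.93), KRT18 (−0.75) and SOX9 (−0.56) fell in SLC22A15_OE, both against vector. The part of these changes in the results was not tested. The only acinar marker of 5 with a row, CTRB1, stayed under 0.7 CPM. In each group 1 library stood apart with a low share of mitochondrial ribosomal RNA. Those reads made up 0.0790%, 0.0843% and 0.0151% of SLC22A10_OE libraries, 0.0111%, 0.0472% and 0.0547% of SLC22A15_OE libraries and 0.00958%, 0.0454% and 0.0516% of vector libraries. Counts are therefore also given from the 6 other libraries and from a fit with a term for the 3 low ones.

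Summed over the 77 genes, the level in SLC22A10_OE cells lay above that in vector cells and the level in SLC22A15_OE cells below it; the sum was not tested. The sum reached 28703, 30325 and 28678 CPM in SLC22A10_OE libraries, 22353, 22367 and 22843 CPM in SLC22A15_OE libraries, and 23811, 23517 and 24331 CPM in vector libraries. No 2 groups overlapped. The members took 2.87% of all reads in SLC22A10_OE, 2.28% in SLC22A15_OE and 2.40% in vector libraries. The subunits moved alike. Large subunit genes summed to 16780 ± 541 CPM in SLC22A10_OE, 12896 ± 194 CPM in SLC22A15_OE and 13589 ± 275 CPM in vector cells (SD, n = 3 libraries each), and small subunit genes to 12456 ± 437, 9625 ± 109 and 10297 ± 202 CPM in the same groups. In bulk RNA, fewer cells that make these mRNAs and less of the mRNAs per cell cannot be told apart.

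**Figure D1:**
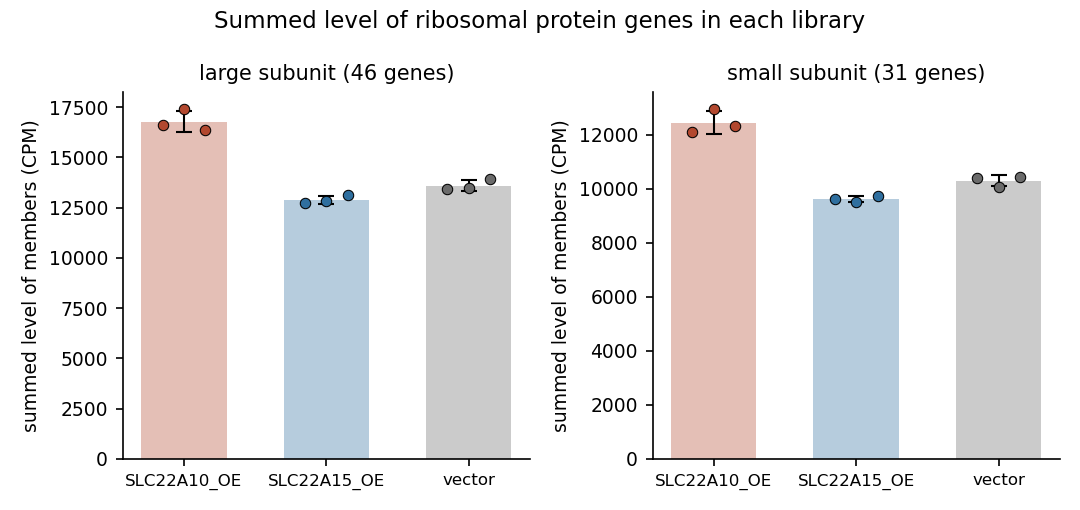
Summed level of the large and small subunit genes in CPM, by group; bars are means, error bars SD over 3 libraries and points single libraries. The SLC22A10_OE libraries stand above all others for both subunits, and the SLC22A15_OE libraries stand below the vector libraries.

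In SLC22A10_OE cells 52 of the 77 genes rose and 5 fell relative to vector cells. Of the large subunit genes 31 rose, 4 fell and 11 did not pass, and of the small subunit genes 21 rose, 1 fell and 9 did not pass (limma on log2(CPM + 1), Benjamini-Hochberg adjusted over 14554 genes, threshold 0.05). This contrast called 67.2% of all tested genes, 34.7% higher and 32.5% lower, so that the share of members called is near the background while the split between the directions is not. The median log2 fold change was 0.24 for each subunit, beside 0.0046 over all tested genes. Groups did not overlap for 32 large and 22 small subunit genes, beside 69.2% of all tested genes.

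The counts depended on the scaling. When every library was centred on its median gene, the median of all genes shifted to −0.12 and the calls over all genes became 3875 higher and 6233 lower, against 5047 and 4728. The members' medians then stood at 0.12 for each subunit, and the calls at 20 higher and 6 lower of the large and 13 higher and 2 lower of the small subunit. The 6 libraries with more mitochondrial ribosomal RNA gave 36 higher and 4 lower, and 26 higher and 1 lower.

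**Figure D2:**
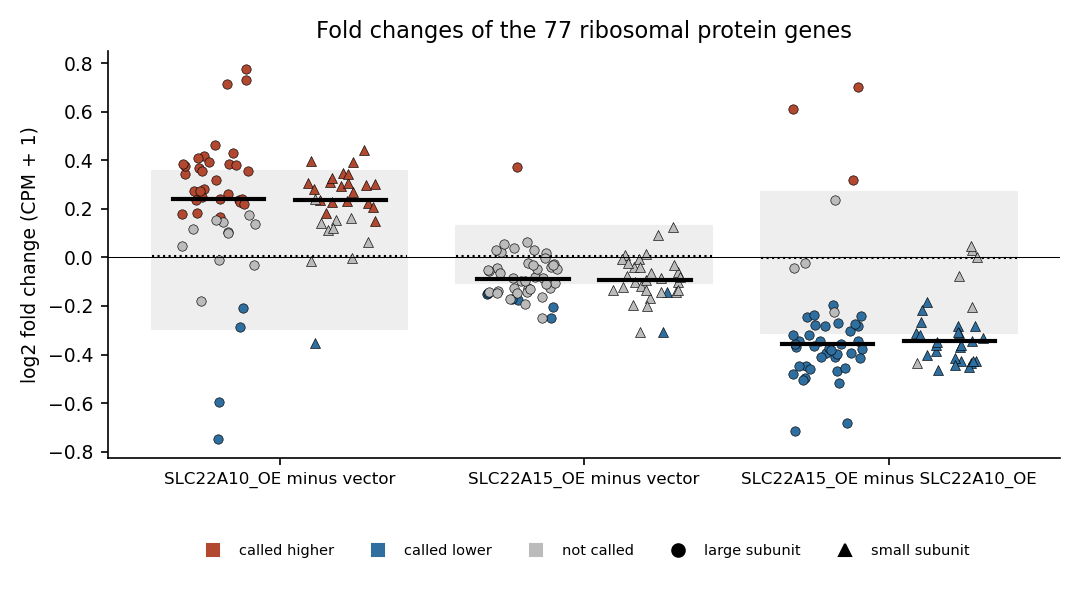
Log2 fold changes (CPM + 1) of the 77 genes in the 3 comparisons; circles are large and triangles small subunit genes, colour gives the call, thick bars the members' medians, the grey band the interquartile range of all tested genes and the dotted line their median. In SLC22A10_OE minus vector most genes lie above 0 with 5 called lower, in SLC22A15_OE minus vector most lie slightly below 0 and few are called, and in SLC22A15_OE minus SLC22A10_OE 64 are called lower and 3 higher.

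All 4 genes listed for the peptidyl transferase centre, where peptide bonds form, rose in SLC22A10_OE cells (RPL3, RPL4, RPL8 and RPL10). Their median log2 fold change was 0.49. Of all tested genes 34.7% were called higher and 32.5% lower. With every library centred on its median gene, RPL10 (adjusted p = 0.0574) and RPL4 (adjusted p = 0.331) no longer passed. RPL3, which reaches into that centre, had 833, 890.1 and 859 CPM in SLC22A10_OE, 540.0, 527 and 539 CPM in SLC22A15_OE, and 525, 511 and 539 CPM in vector libraries. Its SLC22A10_OE values stood clearly above both other groups, which overlapped each other, with a log2 fold change over vector of 0.71 ± 0.04 (SE; adjusted p = 9.44e-09, limma). RPL8, which contacts the same centre, had 989.5, 991 and 1035 CPM in SLC22A10_OE, 800.4, 764 and 788 CPM in SLC22A15_OE and 624, 586 and 608 CPM in vector libraries. It was high in both transduced lines without overlap and rose by 0.73 (adjusted p = 8.35e-09) in SLC22A10_OE. RPL8 lies on chromosome 8, where 193 of the 445 other tested genes were also called higher in SLC22A10_OE, with a median of 0.12 over the 445, and their part in its change was not tested. RPL10, which is fitted late, in the cytoplasm, rose by 0.26 (adjusted p = 0.00285) and RPL4, whose long loop lines the exit tunnel, by 0.18 (adjusted p = 0.00743).

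Of the stalk that recruits translation factors 4 of 4 genes rose, with a median of 0.37, beside 34.7% of all tested genes called higher. After centring, RPLP0 no longer passed (adjusted p = 0.0673, limma). RPLP2, one of the acidic proteins at its tip, had 423, 447 and 425 CPM in SLC22A10_OE, 329.6, 334 and 328 CPM in SLC22A15_OE and 336, 326 and 331 CPM in vector libraries. The SLC22A10_OE values did not overlap the rest, and the log2 fold change was 0.38 (adjusted p = 2.38e-06). RPLP1, its partner at the tip, rose by 0.39 (adjusted p = 3.06e-04), RPL12 at the stalk base by 0.37 (adjusted p = 1.81e-05) and RPLP0, the anchor, by 0.22 (adjusted p = 9.61e-04). RPL10A, the protein of the other stalk, beside which the spent tRNA leaves, rose by 0.36 (adjusted p = 1.38e-05).

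RPL5 and RPL11 enter the large subunit together and, when free, bind the ubiquitin ligase MDM2. RPL5 had 553, 579.7 and 545 CPM in SLC22A10_OE and 512, 539.7 and 573 CPM in vector libraries, which overlap, with a log2 fold change of 0.05 (adjusted p = 0.400). RPL11 had 333, 315 and 284 CPM in SLC22A10_OE and 236, 272 and 284 CPM in vector libraries. It was called at 0.24 (adjusted p = 0.0163) although the third libraries of both groups met at 284 CPM, and the call was lost without SLC22A10_OE library 1 or 2 or vector library 1 (adjusted p of 0.0547 to 0.0770). CDKN1A, which halts the cell cycle, changed by −0.65 in SLC22A10_OE and −0.70 in SLC22A15_OE, and MDM2 by −0.19 in SLC22A10_OE.

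At the exit of the peptide tunnel 5 of 8 genes rose and 1 fell, with a median of 0.24. The share called is near the 67.2% of all tested genes, and the median is near that of the whole large subunit (0.24). RPL22, a surface protein there that also binds small viral RNAs, had 219.8, 231 and 208 CPM in SLC22A10_OE, 141, 159 and 160.0 CPM in SLC22A15_OE and 148, 165 and 165 CPM in vector libraries. SLC22A10_OE stood apart at a log2 fold change of 0.46 ± 0.06 (SE; adjusted p = 2.83e-05). RPL39, a very short protein in the tunnel wall, rose by 0.43 (adjusted p = 2.40e-04), and RPL26 and RPL31 near the opening by 0.23 and 0.38. RPL17, which narrows the tunnel, was the member that fell.

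RPL13A, which in other settings leaves the ribosome to silence inflammatory mRNAs, had 417, 485 and 438 CPM in SLC22A10_OE, 278, 274 and 263 CPM in SLC22A15_OE and 259, 258 and 263 CPM in vector libraries. Its log2 fold change of 0.77 ± 0.05 (SE; adjusted p = 5.09e-08) was the largest of the 77 with this gene counted alone, and its groups did not overlap. RPL13 rose by 0.42 (adjusted p = 4.32e-05), at 751, 858 and 837 CPM in SLC22A10_OE against 649, 568 and 612 CPM in vector libraries.

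Among small subunit genes, 7 of the 9 proteins of the head and the decoding centre rose and none fell, with a median of 0.29. The whole small subunit had a median of 0.24, and 67.2% of all tested genes were called, 34.7% higher and 32.5% lower. RPS19, a head protein needed for processing of the small subunit's RNA, had 894, 1027 and 1084 CPM in SLC22A10_OE, 814, 675 and 689 CPM in SLC22A15_OE and 834, 674 and 706 CPM in vector libraries. Its lowest SLC22A10_OE library was above its highest vector library by little beside the spread within groups, and the log2 fold change was 0.44 ± 0.09 (SE; adjusted p = 8.44e-04). RPS23, which monitors codon pairing, had 998, 1088 and 969 CPM in SLC22A10_OE, 754, 714 and 791 CPM in SLC22A15_OE and 795, 787 and 826 CPM in vector libraries. SLC22A10_OE lay above both other groups, which overlapped each other, at 0.34 over vector (adjusted p = 7.53e-05). RPS25, a head protein used in initiation at viral internal entry sites, rose by 0.39 (adjusted p = 2.16e-04).

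Along the mRNA path RPS2, at the entry, rose by 0.33 (adjusted p = 2.24e-04), RPS3, which also acts in DNA repair, by 0.30 (adjusted p = 2.59e-04) and RPS3A by 0.24 (adjusted p = 0.00883, and 0.0533 without SLC22A10_OE library 2). RPS28 at the exit had 8.89, 11.1 and 4.71 CPM in SLC22A10_OE and 5.57, 7.54 and 8.48 CPM in vector libraries and did not pass (adjusted p = 0.663). RPS14, whose loss of 1 copy causes the anaemia of the 5q- syndrome, rose by 0.31 (adjusted p = 9.82e-05), and RPS6, the S6 kinase substrate, by 0.23 (adjusted p = 0.00597). With every library centred on its median gene, RPS6 no longer passed (adjusted p = 0.160), and of the other members named for SLC22A10_OE neither did RPL11, RPL26, RPS3A and RPSA.

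**Figure D3:**
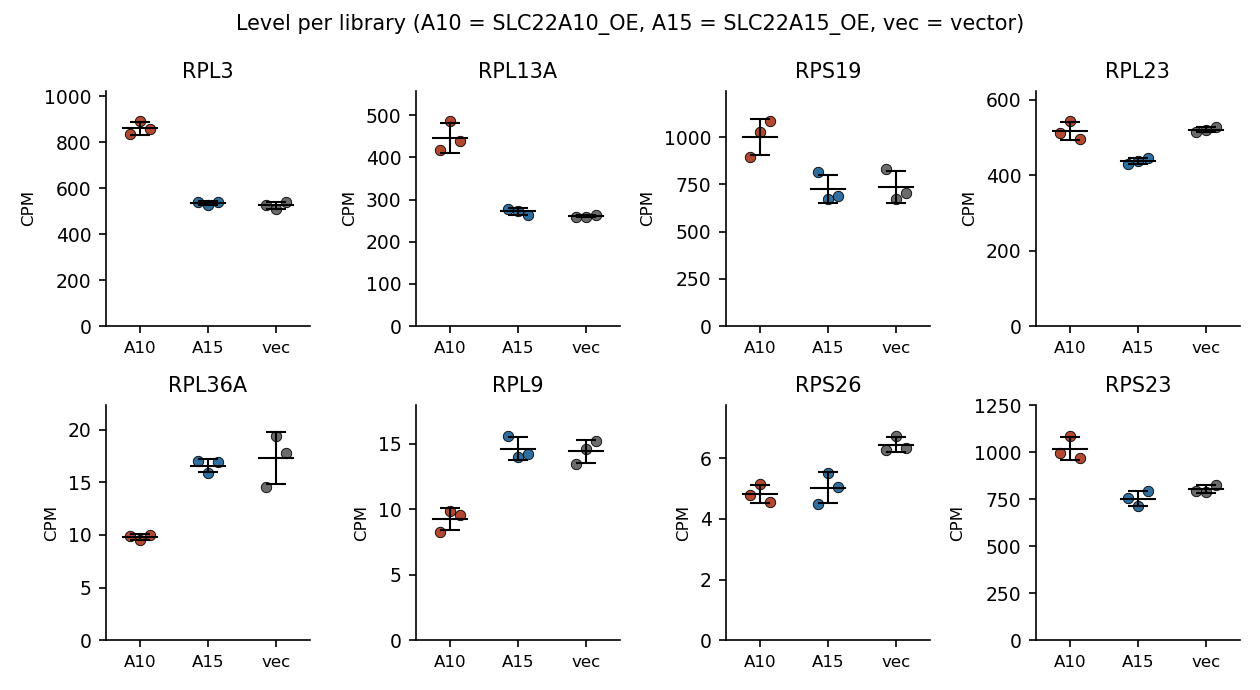
CPM of 8 members in each library, with the mean and SD over 3 libraries; A10 is SLC22A10_OE, A15 is SLC22A15_OE and vec is vector. RPL3, RPL13A, RPS19 and RPS23 are highest in SLC22A10_OE, RPL36A and RPL9 are lowest there, RPL23 is lowest in SLC22A15_OE, and RPS26 is lower in both transduced lines than in vector cells.

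The 5 genes that fell in SLC22A10_OE were RPL36A, RPL9, RPL17, RPL6 and RPS26. RPL36A, which lies near the tRNA exit site, had 9.87, 9.53 and 10.0 CPM in SLC22A10_OE, 17.0, 15.8 and 16.9 CPM in SLC22A15_OE and 14.6, 19.4 and 17.8 CPM in vector libraries. It changed by −0.75 ± 0.10 (SE; adjusted p = 1.48e-05) with no overlap. RPL9, which sits near the site where translation factors bind, had 8.27, 9.87 and 9.53 CPM in SLC22A10_OE, 15.6, 13.99 and 14.2 CPM in SLC22A15_OE and 13.5, 14.6 and 15.2 CPM in vector libraries, again clear of both other groups, and changed by −0.60 ± 0.09 (SE; adjusted p = 5.34e-05). RPL17 had 19.4, 23.6 and 22.7 CPM in SLC22A10_OE, against 29.6, 25.9 and 25.2 CPM in vector libraries, a change of −0.29 (adjusted p = 0.0121) that did not pass without SLC22A10_OE library 1 (adjusted p = 0.0635).

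RPS26, which lies where the mRNA leaves and touches its leader, was lower in both lines. It had 4.78, 5.15 and 4.57 CPM in SLC22A10_OE, 4.51, 5.51 and 5.07 CPM in SLC22A15_OE and 6.28, 6.75 and 6.34 CPM in vector libraries. The vector libraries lay above the 6 others, at changes of −0.35 (adjusted p = 0.00515) in SLC22A10_OE and −0.31 (adjusted p = 0.0361) in SLC22A15_OE, and since both use the same vector libraries they are not 2 separate measurements of that side. RPL6, named after its values were seen, had 158, 159 and 139.9 CPM in SLC22A10_OE and 153, 186 and 190.2 CPM in vector libraries, which overlap, and its call at −0.21 (adjusted p = 0.0427) was lost without any SLC22A10_OE library, SLC22A15_OE library 2, or vector library 2 or 3 (adjusted p of 0.0510 to 0.177). The other 4 genes average under 50 CPM. Of the 11 members below that level 1 rose and 4 fell, while of the 66 above it 51 rose and 1 fell. All tested genes gave 34.7% higher and 32.5% lower in SLC22A10_OE.

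Ribosomal protein genes have many near-identical processed copies in the genome, and how the authors' counting shared reads among them is not known. The GENCODE annotation names 1133 pseudogenes after the 77 genes, with a median of 10 per gene and up to 91. For RPL36A it names 19, for RPL9 17, for RPL17 26 and for RPS26 30, and these 4 levels are uncertain for that reason. The deposited tables list 27 such pseudogenes, of 17 members. RPL13AP5 held 1205, 1407 and 1496 CPM in SLC22A10_OE, 1038, 880.2 and 909 CPM in SLC22A15_OE and 1114, 892 and 943 CPM in vector libraries, in each library well above its parent RPL13A. It rose by 0.48 (adjusted p = 4.79e-04), beside 0.77 for the parent. RPSAP58 held 549.7, 576 and 566 CPM in SLC22A10_OE, 446, 438 and 434 CPM in SLC22A15_OE and 539, 524 and 519.6 CPM in vector libraries, against a mean of 110, 86.6 and 95.8 CPM for its parent RPSA, the laminin receptor protein of the small subunit.

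When each member was summed with its listed pseudogenes, a choice made after the data were seen, RPL13A stood at 0.54, against 0.77 alone, and RPSA at 0.11 (adjusted p = 0.0239), against 0.21 alone, both still called. Counted alone, RPSA lost its call without vector library 2 (adjusted p = 0.0591). RPL21 and RPS10 changed sign without a call on either side, RPL21 at −0.18 alone (adjusted p = 0.136) and 0.07 summed, and RPS10 at −0.01 alone (adjusted p = 0.910) and 0.14 summed. RPL23A, also uncalled, stood at 0.14 alone and 0.04 summed. Summed, RPL13A is no longer the largest increase, since RPL3 stood at 0.71 and RPL8 at 0.73.

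**Figure D4:**
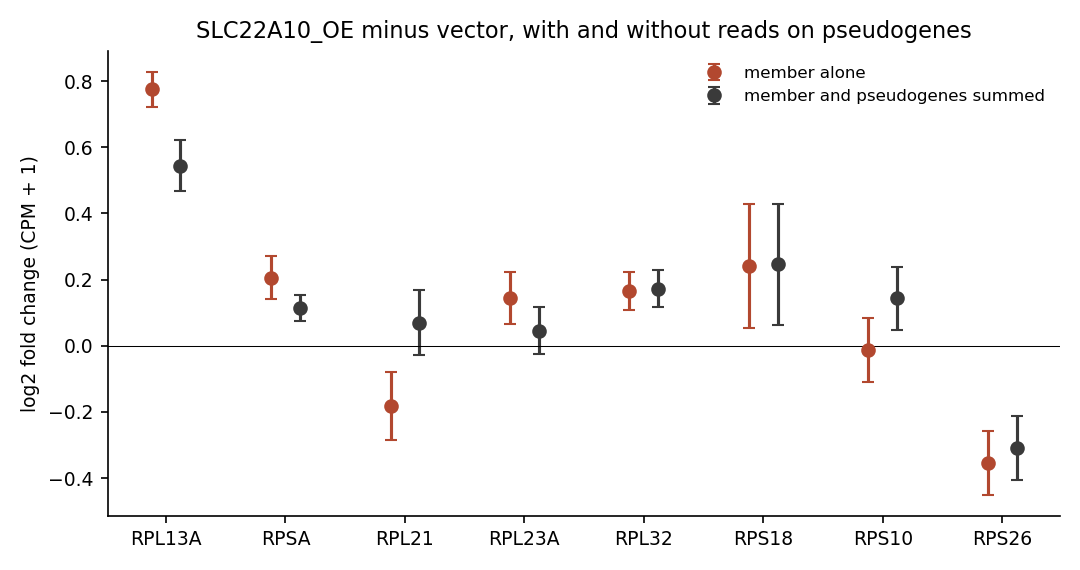
Log2 fold change (CPM + 1) of SLC22A10_OE minus vector for 8 members, each counted alone and summed with its listed pseudogenes, with the standard error of the limma fit. RPL13A moves down to 0.54, RPL21 and RPS10 move across 0, and RPL32, RPS18 and RPS26 hardly move.

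In SLC22A15_OE cells the differences from vector were smaller and mostly downward. Of the large subunit genes 1 rose, 6 fell and 39 did not pass, and of the small subunit genes none rose, 2 fell and 29 did not pass. The contrast called 20.4% of all tested genes, 10.8% higher and 9.58% lower, against 11.7% of the members. Yet 38 of 46 large and 27 of 31 small subunit genes lay below 0, with a median log2 fold change of −0.09 for each subunit, beside 0.0056 over all tested genes. Groups did not overlap for 16 large and 7 small subunit genes, beside 34.7% of all tested genes.

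The number called depended on the libraries low in mitochondrial ribosomal RNA. Without those 3 libraries 1 large subunit gene rose and 20 fell, and 12 small subunit genes fell. With a term for them 1 rose and 25 fell of the large, and 18 fell of the small subunit. All 3 low libraries entered these counts at once, 1 from each group, and all genes gave 4494 calls without them and 5608 with the term, against 2966. The share of members called was then 42.9% beside 30.9% of all tested genes without them, and 57.1% beside 38.5% with the term, so that it stood above the background and not below it.

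RPL23, which lies between the subunits and can also bind MDM2, had the smallest adjusted p of the decreases. It had 511, 543 and 497 CPM in SLC22A10_OE, 430.4, 438 and 445 CPM in SLC22A15_OE and 515, 519 and 528 CPM in vector libraries. SLC22A15_OE lay below both other groups, which overlapped, with a change from vector of −0.25 ± 0.04 (SE; adjusted p = 8.84e-04) that passed whichever library was left out.

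RPL35A, needed to process the large subunit's RNA, had 394, 400.0 and 395 CPM in SLC22A15_OE and 438, 440.3 and 463 CPM in vector libraries, without overlap, and fell by 0.17 on the log2 scale (adjusted p = 0.0147), a call lost without SLC22A15_OE library 3 or vector library 3 (adjusted p of 0.0536 to 0.0856). The other calls named here were near the threshold and each was lost without some single library. They were RPL10 at −0.20 (adjusted p = 0.0414), RPLP0 at −0.15 (adjusted p = 0.0383), RPL5 at −0.15 (adjusted p = 0.0441), RPL32 at −0.18 (adjusted p = 0.0488) and RPS26. With 1 library left out, the adjusted p that no longer passed was 0.0531 to 0.180 for RPL10 (6 of the 9 libraries), 0.0783 to 0.139 for RPLP0 (4), 0.0504 to 0.214 for RPL5 (8), 0.0557 to 0.210 for RPL32 (7) and 0.0845 to 0.138 for RPS26 (4). RPL8 was the riser, at 0.37 (adjusted p = 2.90e-05). On its chromosome 178 of the 445 other tested genes were called higher in SLC22A15_OE, with a median of 0.19, and their part in its change was not tested.

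Set directly against each other, the lines differed in most members. In SLC22A15_OE relative to SLC22A10_OE 39 large subunit genes were lower, 3 higher and 4 not called, and 25 small subunit genes were lower, none higher and 6 not called. The contrast called 62.9% of all tested genes, 30.8% higher and 32.1% lower. Groups did not overlap for 42 large and 24 small subunit genes, beside 67.4% of all tested genes. The median log2 fold change was −0.36 for the large and −0.34 for the small subunit, beside −0.0020 over all genes. With every library centred on its median gene it was −0.26 and −0.25 for the subunits beside 0.09 over all genes, and the calls were 32 lower and 4 higher, and 21 lower and none higher, while over all genes 5798 were higher and 3713 lower, against 4484 and 4674.

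Counted alone, RPL13A had the largest decrease, −0.71 (adjusted p = 1.91e-07), but it stood at −0.58 when summed with its pseudogenes, behind RPL3 at −0.68 (adjusted p = 3.10e-08). RPL22 stood at −0.52. RPL7A, whose introns hold several small nucleolar RNAs, had 278, 266 and 272 CPM in SLC22A15_OE and 374, 416 and 370.1 CPM in SLC22A10_OE libraries, far apart, at −0.50 (adjusted p = 5.43e-06). RPL41, the shortest of the proteins, was also at −0.50 and RPL37A at −0.48. Of the small subunit RPS19 stood at −0.46 (adjusted p = 6.73e-04), RPS3 at −0.44 (adjusted p = 1.18e-05) and RPS23 at −0.43 (adjusted p = 1.20e-05). The 3 genes that were higher in SLC22A15_OE than in SLC22A10_OE were RPL36A at 0.70, RPL9 at 0.61 and RPL17 at 0.32.

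RPS27A, which supplies both a small subunit protein and ubiquitin, varied widely within groups. It had 207, 236 and 167 CPM in SLC22A10_OE, 105, 169 and 179.7 CPM in SLC22A15_OE and 150.1, 197 and 206 CPM in vector libraries. In every group the lowest value was that of the library low in mitochondrial ribosomal RNA, and the call between the lines, −0.45 (adjusted p = 0.0447), was lost without SLC22A10_OE library 1 or 2 or SLC22A15_OE library 1 (adjusted p of 0.103 to 0.193). FAU was not called in SLC22A10_OE or SLC22A15_OE against vector.

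The library low in mitochondrial ribosomal RNA differed from the mean of its group's other 2 in the same direction in all 3 groups for 56 of the 77 members (72.7%), 18 higher and 38 lower, beside 60.6% of all tested genes. RPS28 was lower by 0.94 in SLC22A10_OE, 0.50 in SLC22A15_OE and 0.45 in vector cells on the log2 scale, and RPS18, a head protein at the contact with the large subunit, by 0.79, 0.40 and 0.39. RPS29 was higher by 0.26, 0.26 and 0.43, and RPS19 by 0.18, 0.25 and 0.27.

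Genes that make and process ribosomal RNA mostly fell in SLC22A10_OE cells. Of 24 genes of RNA polymerase I and ribosomal RNA processing 19 fell and 1 rose, with a median log2 fold change of −0.42. The contrast called 32.5% of all tested genes lower and 34.7% higher. NOP56, a core protein of the particles that methylate ribosomal RNA, averaged 145 ± 4.46 CPM in SLC22A10_OE, 282 ± 9.85 CPM in SLC22A15_OE and 305 ± 8.49 CPM in vector cells (SD, n = 3 libraries each), a change from vector of −1.07 (adjusted p = 6.09e-10, limma). DKC1, which makes pseudouridine, changed by −0.95 (adjusted p = 2.10e-09) and NOP2, a methylase of large subunit RNA, by −0.91 (adjusted p = 1.79e-09), while POLR1D, shared by polymerases I and III, was the 1 that rose, at 0.40 (adjusted p = 2.07e-04).

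Of 16 tested chaperones and importers of ribosomal proteins 12 fell and none rose in SLC22A10_OE, with a median of −0.39. TNPO1, an import receptor, averaged 444 ± 10.0 CPM in SLC22A10_OE, 659 ± 29.1 CPM in SLC22A15_OE and 727 ± 35.3 CPM in vector cells (SD, n = 3 libraries each) and changed from vector by −0.71 (adjusted p = 4.53e-08). MDN1, the ATPase that strips assembly factors from the large subunit, changed by −0.56 (adjusted p = 1.03e-07) and ZPR1, a zinc finger protein, by −0.49 (adjusted p = 2.58e-06). Of 19 tested translation factors with TOP mRNAs 9 rose and 2 fell, with a median of 0.15. That share called is below the 67.2% of all tested genes called in this contrast, 34.7% higher and 32.5% lower. EEF1G, a subunit of the factor that recharges EEF1A, rose by 0.41 (adjusted p = 2.20e-06) and EIF2S3, the subunit of the initiation factor that holds the initiator tRNA, by 0.38 (adjusted p = 1.76e-06). EIF3H, an initiation factor subunit that lies on chromosome 8, rose by 0.81 (adjusted p = 2.61e-08).

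**Figure D5:**
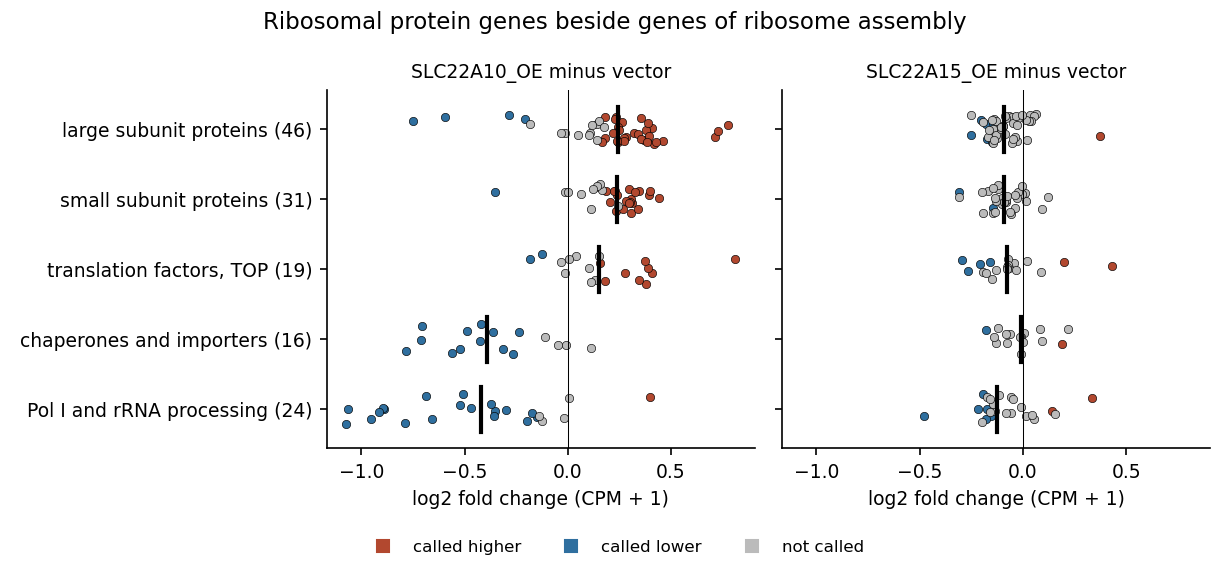
Log2 fold changes (CPM + 1) of the large and small subunit genes beside 3 lists of genes that work with them, for SLC22A10_OE minus vector and SLC22A15_OE minus vector; each point is a gene coloured by its call, bars are medians and list sizes stand in brackets. In SLC22A10_OE the subunits and the TOP translation factors have medians above 0 and the chaperones and the polymerase I and processing genes have medians of −0.39 and −0.42; in SLC22A15_OE all 5 medians lie between −0.13 and −0.01. Both panels use the same vector libraries.

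In SLC22A15_OE, where 20.4% of all tested genes were called, the shares called in these lists lay on both sides of that background. Of the 24 polymerase I and processing genes 2 rose and 6 fell, with a median of −0.13; POLR1B, the second largest subunit of the polymerase, fell by 0.48 on the log2 scale (adjusted p = 2.65e-06). Of the 16 chaperones and importers 1 rose and 1 fell, with a median of −0.01, and HEATR3, an adaptor in the import of RPL5, was the riser at 0.19 (adjusted p = 0.0182). Of the 19 TOP translation factors 2 rose and 4 fell, with a median of −0.08. Set directly against each other, SLC22A15_OE exceeded SLC22A10_OE in 18 of the polymerase I and processing genes and 12 of the chaperones, and was below it in 15 of the 19 TOP translation factors. That contrast called 30.8% of all tested genes higher and 32.1% lower.

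Of 16 regulators of TOP mRNAs and mTORC1 3 rose and 7 fell in SLC22A10_OE, and 2 rose and 1 fell in SLC22A15_OE, both near or below the 67.2% and 20.4% of all genes called. LARP1, which binds the cap and the TOP motif, averaged 657 ± 18.5 CPM in SLC22A10_OE, 853 ± 13.7 CPM in SLC22A15_OE and 867 ± 28.8 CPM in vector cells (SD, n = 3 libraries each). SLC22A10_OE was lower than vector by 0.40 on the log2 scale (adjusted p = 2.27e-06), and SLC22A15_OE did not differ detectably (adjusted p = 0.758). RHEB, the GTPase that switches mTORC1 on, rose by 0.63 (adjusted p = 1.78e-05) and EIF4EBP1, the translation brake that mTORC1 phosphorylates, by 0.44 (adjusted p = 0.00248) in SLC22A15_OE, and MYC, a transcription factor that drives ribosome production, fell by 0.27 on the log2 scale (adjusted p = 0.00205). Of 10 genes that act on stalled ribosomes 2 rose and 5 fell in SLC22A10_OE, and none rose and 2 fell in SLC22A15_OE, near those same background shares. USP21, which removes ubiquitin from stalled small subunits, rose by 0.62 (adjusted p = 9.10e-06) in SLC22A10_OE, and ZNF598, the ligase that attaches it, changed by −0.51.

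Mitochondrial ribosomal protein genes build a separate ribosome. Of the 78 tested 11 rose and 32 fell in SLC22A10_OE with a median of −0.14, and 3 rose and 4 fell in SLC22A15_OE with a median of −0.01. Among all tested genes 34.7% were called higher and 32.5% lower in SLC22A10_OE, and 10.8% and 9.58% in SLC22A15_OE. The share of these 78 called was thus below the background in both contrasts. Of the 5 tested paralogues of cytosolic members 1 was called in SLC22A10_OE, RPL7L1 at −0.20 (adjusted p = 7.27e-04).

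Several features that the rule did not use were set beside the changes in SLC22A10_OE. That contrast called 67.2% of all tested genes, 34.7% higher and 32.5% lower. Members with the TOP run exactly at the annotated start gave 30 higher and 1 lower of 42, with a median of 0.24. Those with a sequence but no run exactly there, some of which have one nearby, gave 12 higher and 4 lower of 20, with a median of 0.21. Of the 28 members that host small nucleolar RNAs in their introns 21 rose and 1 fell (median 0.28), and of the 49 others 31 rose and 4 fell (median 0.24). Of the 18 genes mutated in Diamond-Blackfan anaemia, an inherited failure of red cell production, 7 rose and 1 fell (median 0.16), and of the 59 others 45 rose and 4 fell (median 0.27). In SLC22A15_OE 3 of those 18 fell and none rose, where 20.4% of all tested genes were called, 10.8% higher and 9.58% lower. These splits were not tested. Across the 77 genes, which share libraries and in part sequence, Spearman's rho of the change in SLC22A10_OE was 0.37 with GC content, 0.39 with mean CPM and −0.22 with the number of annotated pseudogenes. GC content also went with the difference of the low libraries from the others (rho 0.41), and its part in the changes was not tested. It was taken from the shortest coding transcript in GENCODE, with those matched to RefSeq preferred. That transcript was 7686 bases long for RPL37, so for some members it may not be the mRNA that was sequenced.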

How the data were processed

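The deposited tables hold CPM values (counts scaled to library size) for 9 libraries, with fold changes made by the authors on the log2 scale and their p-value and FDR per gene. Per the labels' protocols, libraries were strand-specific, made with random primers after depletion of ribosomal RNA, and sequenced in pairs. The submitters' processing notes name edgeR, hg38 and mm9; aligner, counter and annotation are unknown here. In the deposited CPM values, 100% lay within 0.1 read of a whole number once multiplied by the reads behind 1 CPM, so reads could be recovered (28351741 to 42942234 per library); counts per gene in libraries of 1 group differed by more than sampling noise. CPM does not correct for gene length, so a level set beside that of another gene (a pseudogene and its parent, the split at 50 CPM, the correlation with mean CPM) is per library size and not per length. Mature copies and processed pseudogenes can share reads.

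Genes with at least 1 CPM in at least 3 libraries (14554) were tested in 1 limma fit (version 3.58.1, R 4.3.3) on log2(CPM + 1) with an intensity trend and 6 residual degrees of freedom, two-sided, with Benjamini-Hochberg adjustment over all of them and a threshold of 0.05. Fold changes are on the log2(CPM + 1) scale, which understates changes of low genes. The pipeline was tested on simulated data. There were 3 comparisons, and 11 kinds of alternative, among them edgeR 4.0.16 and DESeq2 1.42.0 on recovered reads, another pseudocount, no filter, median centring and leaving out libraries.

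Library numbers come from the authors' column names, which could not be matched to single sample titles. Same-numbered libraries did not deviate together throughout (correlations of deviations from the group means of 0.57, 0.31 and 0.19 between SLC22A15_OE and vector, but −0.41, 0.14 and −0.26 between SLC22A10_OE and vector), so the numbers were not taken as pairs.

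Members and lists were chosen with earlier results of these data known, and no list was tested as a set. Named were, per comparison and subunit, the 6 largest called changes in each direction without overlap between groups, all members of the role lists, and up to 3 called genes of each other list by adjusted p; other members named were chosen after their values were seen. Start sequences are RefSeq's (GRCh38.p14); 15 members had no entry. Of 5 fibroblast markers 2 had a row, summing to 5.22 to 6.98 CPM in SLC22A10_OE, 0.442 to 0.603 in SLC22A15_OE and 2.93 to 3.82 in vector libraries. That sum covers opposite log2 changes from vector in SLC22A10_OE, COL1A1 at 1.96 and COL1A2 at −0.92. Mesenchymal markers (3 of 4 with a row), led by VIM, summed to 3367 to 3555, 2588 to 2764 and 3046 to 3243 CPM in the same groups. VIM changed by 0.13, FN1 by −0.38 and ZEB1 by −0.28 in SLC22A10_OE. Leukocyte and endothelial markers (2 of 5 with a row) summed to 29.5 to 32.2, 22.9 to 23.3 and 16.5 to 19.9 CPM. The only islet marker of 5 with a row, CHGA, did not exceed 1.06 CPM. A few members and list genes are not reported by name here.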

Additional observations from a re-analysis of the deposited data

How the results depend on the processing

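Over the members named, no call turned its direction under the alternatives run: 927 values kept their side of the threshold, 28 lost and 14 gained a call in SLC22A10_OE minus vector, 875, 42 and 52 in SLC22A15_OE minus vector, and 946, 13 and 10 between the lines. The medians of both subunits kept their sign under every scaling. In SLC22A10_OE minus vector the number called in both directions together stayed within 1.5 times, but centring on the median gene took the calls to 20 higher and 6 lower of the large and 13 higher and 2 lower of the small subunit, against 31 and 4, and 21 and 1. Leaving out 1 library gave 29 to 36 large and 18 to 23 small subunit genes, and the line against line comparison gave 39 to 43 and 21 to 26. In SLC22A15_OE minus vector the count of 7 large and 2 small subunit genes did not hold. It was 13 large after centring on the median gene; 4 large and 1 small with only the 2 groups in the fit; 21 and 12 without the 3 libraries low in mitochondrial ribosomal RNA; and 26 and 18 with a term for them. Over all genes, 2966 calls became 4494 and 5608 under those last choices. Leaving out 1 library gave 2 to 10 large and 0 to 6 small subunit genes. The large count was 4 without SLC22A10_OE library 2, 3 without SLC22A15_OE library 2, and 2 without SLC22A15_OE library 3 or vector library 3; the small count was 1 without SLC22A15_OE library 2 or 3, 6 without vector library 1 and 0 without vector library 3. Fits that leave out libraries have fewer degrees of freedom; otherwise the cause was not tested.

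With the column number as a replicate block, SLC22A10_OE minus vector called 36 large and 22 small subunit genes, SLC22A15_OE minus vector 6 and 2, and SLC22A15_OE minus SLC22A10_OE 42 and 24; the numbers only name libraries. On recovered reads edgeR called 8 large and 2 small subunit genes in SLC22A15_OE minus vector and DESeq2 10 and 2, and both called 35 and 22 in SLC22A10_OE minus vector. The authors' deposited tables call 31 large subunit genes higher and 4 lower, and 21 small subunit genes higher and 1 lower, in SLC22A10_OE. Summing with listed pseudogenes, added after the data were seen, brought RPSA to a call in SLC22A15_OE minus vector (−0.25, against −0.14 alone) and took that of RPL23A between the lines (−0.11, adjusted p = 0.207 by limma, against −0.24). The 11 members under 50 CPM rest on the fewest reads.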
